A study of Mus musculus with 18 samples.

Results

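Reads of the maternal allele were compared with reads of the paternal *cast* allele in the 4 wt libraries of *Tsix*-stop cells, 4 of the 18 libraries of the series. *Tsix*-stop is a female F1 hybrid mouse ES line from a *Mus castaneus* (*cast*) father and a mother of the inbred strain whose SNPs define the pseudo-129 genome. The maternal allele is thus the one read with pseudo-129 SNPs, and the word names a copy in this cross and not an effect of the parent. All the groups used here carry a transcriptional stop in *Tsix* on the maternal X chromosome, so that the maternal X is the one inactivated on differentiation. The wt cells, with unedited *Kdm6a*, were sampled at D0 as undifferentiated ES cells, kept with LIF on inactivated mouse embryonic fibroblast feeders, and at D15 as embryoid bodies (EBs) made by LIF withdrawal, with 2 libraries on each day. The other 6 *Tsix*-stop libraries were used only for comparison. They come from 2 *Kdm6a* KO clones (2 libraries a day) and from a CRISPR control that is 1 clone (1 library a day). These clones were made from the *Tsix*-stop line itself and carry chromosomes of the same parents. Genes were kept when at least 50 reads could be assigned to an allele in each of the 4 wt libraries, which 9220 of 24346 genes did. Of these, 6826 lie on the 15 autosomes other than chromosomes 6, 8, 11 and 12, called the other autosomes below, 2080 on those 4 chromosomes, 301 on the X chromosome and 13 on the Y or on no assigned chromosome. Counts of genes on chromosomes 6, 8, 11 and 12 are given apart, since whole stretches of them were skewed, and the gene lists hold members from all chromosomes and are split by chromosome where counted.

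In an F1 hybrid both copies of an autosomal gene share a nucleus and its transcription factors, so a true and lasting inequality between the alleles marks a difference in the copies themselves. Such a difference can be in the sequence of a promoter or enhancer, or in a chromatin state that is kept through cell division, as at imprinted genes, where it depends on the parent of origin, and at genes with random monoallelic expression, where each clone keeps its own choice. Only 1 direction of the cross was used, so strain and parent of origin cannot be told apart here.

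Between 9605110 and 12095548 reads per wt library overlapped a SNP that separates the strains, 18.1% to 18.9% of the counts on either genome. A kept gene had a median of 552 such reads per library. The share of maternal reads has a 95% Wilson interval of 36.6% to 63.4% at 50 reads split equally, and of 46.9% to 53.1% at 1000 reads. Replicates differed by a median of 2.29 percentage points of the maternal share at D0 and 2.26 at D15. Bulk RNA was measured, so that fewer cells of a type and less RNA per cell cannot be told apart, and nothing ties a replicate number to a culture.

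Most autosomal genes were read close to equally from both alleles. On the other autosomes the median maternal share was 51.1% and 51.1% in the D0 libraries and 50.9% and 51.1% in the D15 libraries, and 3992 of 6826 genes (58.5%) lay between 40% and 60% in all 4. The spread between genes was wider before differentiation. The central 90% of genes covered 31.4% to 74.5% and 31.7% to 74.6% in the D0 libraries, against 36.9% to 69% and 36.5% to 68.5% in the D15 libraries. The same narrowing was seen in the CRISPR control, from 30.3% to 74.8% at D0 to 36.8% to 68.8% at D15, and each KO D15 library was narrower than each KO D0 library.

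At D0, 1023 of 6826 genes were strain-biased, called at an FDR of at most 0.1 (edgeR quasi-likelihood test) and at least a 2-fold difference between alleles, which is 15.0% of the genes tested. The maternal allele was higher at 627 of them (9.19%) and the *cast* allele at 396 (5.80%). At D15, 601 genes (8.80%) were called, 393 with the maternal allele higher (5.76%) and 208 with *cast* higher (3.05%). Without a minimum fold, 4206 genes passed the FDR at D0 and 3838 at D15, and the median absolute log2 ratio of the alleles over all genes was 0.30 at D0 and 0.25 at D15, so that most differences that passed the test were small. Bias was called more often among genes with few reads. In the third of genes with the fewest reads 21.2% were called at D0 and 13.1% at D15, and in the third with the most reads 11.6% and 6.81%. Below the limit of 50 reads, 836 genes with 25 to 49 reads in their lowest library had a 2-fold bias in both D0 libraries in 30.3% of cases, and the 515 genes just above it, with 50 to 74 reads, in 23.7%.

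The genes biased at D15 were mostly genes already biased at D0. Both days called 486 genes with the same higher allele, which is 47.5% of the D0 calls and 80.9% of the D15 calls, and 1 gene with opposite alleles. A further 536 genes were called at D0 alone, but the ratio itself was called as changed in only 243 of them (45.3%). Of the 114 genes called at D15 alone it was called as changed in 30 (26.3%). The bias was shared with the KO and CRISPR control clones made from the same *Tsix*-stop line. Being of the same line and cross, these clones cannot tell strain from parent of origin. Of the 947 genes called at D0 that had reads in both KO libraries and the CRISPR control library of that day, 937 (98.9%) had the same higher allele in all 3, and 673 (71.1%) were at least 2-fold biased in all 3, against 0.930% of genes not called. At D15 the same higher allele was found in 549 of 558 genes (98.4%) and a 2-fold bias in 408 (73.1%), against 0.851%.

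From D0 to D15 the ratio of maternal to *cast* reads changed at 395 genes on the other autosomes (5.79%), at least 2-fold and at an FDR of at most 0.1. At 173 of them the maternal allele gained (2.53%) and at 222 the *cast* allele gained (3.25%). The libraries of the 2 days did not overlap at 393 of the 395, nearly fixed by the call itself, and at 4017 of all 6826 genes (58.8%). The ratio came nearer to 1 by D15 at 333 of these genes (84.3%), against 3966 of all 6826 genes tested (58.1%). Of the 395, 316 (80%) were strain-biased at D0 and 103 (26.1%) at D15.

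**Figure D1:**
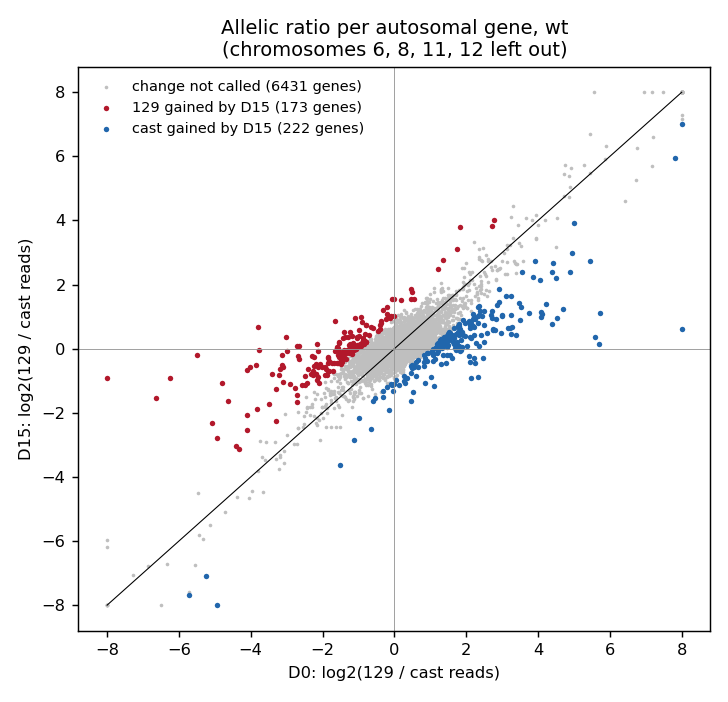
Log2 ratio of maternal to *cast* reads of each of 6826 genes on the other autosomes, at D0 on the x axis and at D15 on the y axis, with fitted values beyond 8 drawn at 8 and the line of equal values in black (figure labels name the maternal allele by its pseudo-129 strain). The 173 genes where the maternal allele gained (red) and the 222 where *cast* gained (blue) include 333 that came nearer to a ratio of 1, of which 250 lie between that line and the horizontal line of equal alleles and 83 crossed to the other side of it.

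Where the ratio came nearer to 1, the allele that had been low at D0 mostly moved more in log2 level, at 247 of 333 genes (74.2%). This is partly fixed in advance, since the genes were chosen for a ratio nearer to 1 and a low level moves further in log2. The values below are thus a description. In reads per 1000000 SNP reads (RPM), the lower allele was higher at D15 than at D0 at 293 of the 333 genes (88.0%), with a median log2 change of 1.68, while the median change of the higher allele was 0.03. Over all genes tested, which were not chosen in this way, these medians were 0.06 and -0.09. Both alleles were higher in level at D15 at 171 genes, the lower was up and the higher down at 122, and both were down at 40. The genes with a changed ratio had more often changed in total level. Of the 395, 188 (47.6%) differed at least 2-fold in summed level between the days, 117 upwards and 71 downwards, against 25.4% of the other 6431 genes. In the clones of the same line, 286 of 317 genes with enough reads (90.2%) differed between D0 and D15 in the same direction both in the mean of the KO libraries and in the CRISPR control, and 134 (42.3%) did so at least 2-fold in both, against 0.835% of genes not called.

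Called genes that were next to each other along a chromosome shared the favoured allele somewhat more often than the overall split between the alleles would give at D0. There were 185 pairs of neighbouring called genes at D0, of which 116 (62.7%) favoured the same allele, against 52.5% from the split. At D15 this was 34 of 64 pairs (53.1%), against 54.7%, and for changed ratios 22 of 31 pairs (71.0%), against 50.8%. No window of 25 neighbouring genes on the other autosomes was skewed to the degree of chromosome 12. Over 274 windows the mean of the library medians ran from 42.7% to 57.9% at D0 and from 45.5% to 56.1% at D15, and no window moved by more than 5.76 percentage points.

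The strongest form of the bias is reading from a single allele, set here as a maternal share of at least 95% or at most 5% in both libraries of a day. At D0, 61 genes on the other autosomes were read from the maternal allele only and 29 from *cast* only by this measure, 1.32% of the genes tested. At D15 there were 47 and 22 (1.01%). Of the 69 genes at D15, 67 were also read from the same allele at D0. Of the 90 genes at D0, 13 had a maternal share between 20% and 80% in both D15 libraries. By these limits 0 genes went the other way, from both alleles at D0 to 1 at D15. The 13 genes were chosen by their shares on both days, so the values of those libraries are a description.

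Of the 13, 6 were read from *cast* at D0, namely *Dok5*, *P4ha3*, *Dab2*, *Apoa2*, *Sirt5* and *Tub*, and 7 from the maternal allele, namely *Gata3*, *Prr5l*, *Nefm*, *Fsd1l*, *Slc30a2*, *Ncoa7* and *Ephx2*. In each of them the level of the allele that was low at D0 was at least 2-fold higher at D15, with a median log2 difference of 3.71, and the level of the other allele was lower at D15 in 10 of 13. Neither the KO nor the CRISPR control libraries had been used to choose them. In all 3 of those D0 libraries the 13 genes favoured the same allele as in wt, at a share of at least 90% in 11 of them, and at D15 10 of 13 had shares between 20% and 80% in all 3.

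**Figure D2:**
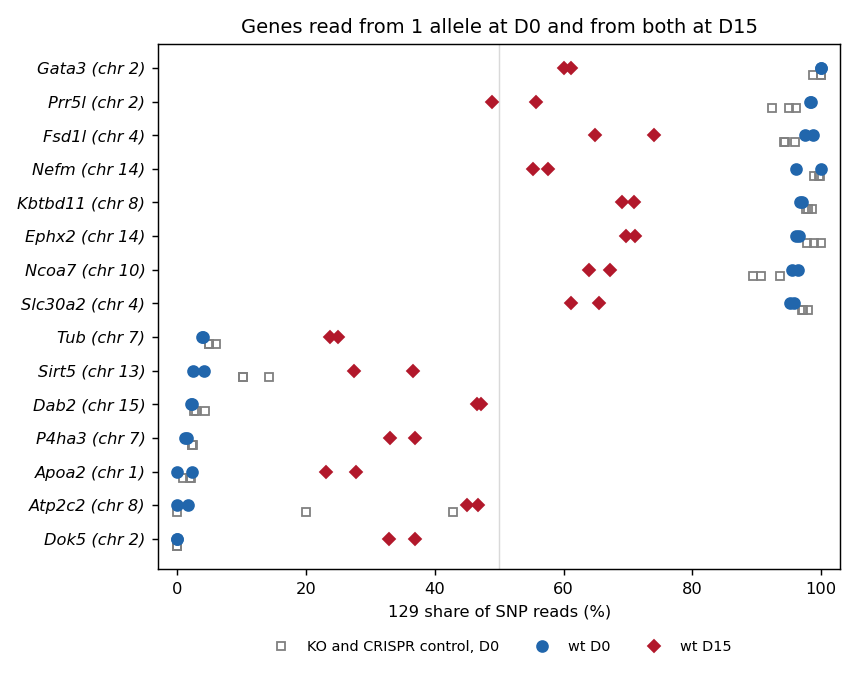
Percentage of SNP reads from the maternal allele (x axis) in each wt library at D0 (blue circles) and D15 (red diamonds) for the 13 genes on the other autosomes that were read from 1 allele at D0 and both at D15, and for *Atp2c2* and *Kbtbd11* on chromosome 8, with the KO and CRISPR control libraries at D0 as open squares. The D15 points of all 15 genes lie between 23.1% and 74.1%, while the wt D0 points lie at or beyond 4.13% and 95.2%.

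The reference sequence just upstream of 4 of these genes is shown because the windows of genes that went from 1 allele to both ranged from CG-rich to nearly free of CG. Each sequence is the 250 bases before an annotated start in RefSeq (GRCm38.p6), read 5′ to 3′ on the strand of the gene, with every CG dinucleotide in capitals and the rest in lower case. CG is the same on both strands. Over the 32851 promoters listed for the genome the median number of CG in such a window was 6, and 37.8% held at least 10. The tested genes were richer, with a median of 17 and 81.5% holding at least 10 over the 5279 that matched, and 10 of the 13 genes matched, with a median of 16 and 60% holding at least 10. The windows are of the reference strain, and the bases at which *cast* differs are not marked.
*Dab2*, upstream start, chr15:6299539-6299788, plus strand: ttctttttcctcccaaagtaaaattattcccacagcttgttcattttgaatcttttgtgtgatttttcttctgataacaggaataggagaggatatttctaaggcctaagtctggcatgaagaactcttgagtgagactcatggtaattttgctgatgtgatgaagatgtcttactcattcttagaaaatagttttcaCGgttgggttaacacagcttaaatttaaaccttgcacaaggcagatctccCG
*Dab2*, downstream start, chr15:6386498-6386747, plus strand: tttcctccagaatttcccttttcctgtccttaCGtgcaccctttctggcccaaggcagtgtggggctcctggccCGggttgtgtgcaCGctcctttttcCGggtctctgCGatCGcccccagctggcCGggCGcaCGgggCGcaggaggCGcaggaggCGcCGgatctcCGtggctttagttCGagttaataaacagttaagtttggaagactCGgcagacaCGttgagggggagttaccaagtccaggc
*P4ha3*, chr7:100285270-100285519, plus strand: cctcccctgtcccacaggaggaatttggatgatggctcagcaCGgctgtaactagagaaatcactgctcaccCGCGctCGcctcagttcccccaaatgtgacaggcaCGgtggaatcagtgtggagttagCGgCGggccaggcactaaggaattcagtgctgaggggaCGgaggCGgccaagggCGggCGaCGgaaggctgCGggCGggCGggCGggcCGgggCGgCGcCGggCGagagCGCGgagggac
*Gata3*, chr2:9878601-9878850, minus strand: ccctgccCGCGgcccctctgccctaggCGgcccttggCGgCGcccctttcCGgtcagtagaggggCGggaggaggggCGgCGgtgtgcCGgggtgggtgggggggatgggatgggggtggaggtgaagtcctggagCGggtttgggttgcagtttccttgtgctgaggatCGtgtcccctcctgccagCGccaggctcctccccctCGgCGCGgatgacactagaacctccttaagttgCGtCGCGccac
*Prr5l*, the most upstream of its starts, chr2:101883028-101883277, minus strand: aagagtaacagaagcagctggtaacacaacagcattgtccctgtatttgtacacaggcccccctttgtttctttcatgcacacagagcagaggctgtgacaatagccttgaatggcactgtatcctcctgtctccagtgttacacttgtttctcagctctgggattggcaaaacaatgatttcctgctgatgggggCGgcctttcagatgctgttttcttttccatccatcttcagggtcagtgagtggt
The windows held 2 CG at the upstream and 17 at the downstream start of *Dab2*, 23 at *P4ha3*, 19 at *Gata3* and 1 at the start shown for *Prr5l*, whose other annotated starts held 2 and 10. Which start the reads came from was not measured, and a count of CG is no measure of methylation.

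*Dab2* (chr15:6299788-6440712), an endocytic adaptor protein that is abundant in visceral endoderm, gave the clearest case. It had 8 maternal reads and 373 from *cast* in the first D0 library and 11 and 489 in the second, and 860 and 965 at D15 in the first library and 623 and 716 in the second. The maternal share was thus 2.10% and 2.20% at D0 and 47.1% and 46.5% at D15, with a wide gap between the days. The log2 ratio changed by 5.30 ± 0.20 (SE), with an adjusted p of 6e-17 in the edgeR fit. The level of the maternal allele went from 1.15 to 97.7 RPM, and that of the *cast* allele from 52.2 to 111. In the KO and CRISPR control libraries the maternal share of *Dab2* was 2.59% to 4.35% at D0 and 33.1% to 43.1% at D15.

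*P4ha3* (chr7:100285520-100319699), a catalytic subunit of collagen prolyl hydroxylase, also gained maternal reads, but with fewer reads in all at D15. Its maternal and *cast* reads were 7 and 487, and 6 and 514, in the D0 libraries, and 103 and 209, and 104 and 178, in the D15 libraries. The maternal share of 1.42% and 1.15% at D0 and of 33.0% and 36.9% at D15 gave a change of 5.34 ± 0.29 (SE) in log2 ratio (edgeR, adjusted p = 1e-13). In the other clones of the line its D15 shares were lower, at 10.4% and 12.9% in the KO and 12.9% in the CRISPR control. *Dok5* (chr2:170731807-170879769), an adaptor for receptor tyrosine kinases, had 0 maternal reads among 230 and 135 reads at D0, which allows a maternal share of up to 1.30% and 2.22%. At D15 its maternal share was 36.9% (24 of 65 reads) and 32.9% (23 of 70 reads), and its *cast* level was 21.6 RPM at D0 and 5.89 at D15.

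*Apoa2*, an apolipoprotein of high-density lipoprotein made in endoderm and liver, was the only visceral endoderm marker with enough reads in all 4 libraries. Genes with too few reads at D0 were left out on both days, such as *Afp*, with maternal shares of 56.7% and 58.4% at D15. *Apoa2* was low on both days, at 3.87 and 2.55 CPM at D0 and 2.79 and 3.59 at D15. It had 0 of 139 and 2 of 91 reads from the maternal allele at D0 and 18 of 78 and 31 of 112 at D15. In the KO and CRISPR control clones its maternal share at D15 was only 1.28% to 4.73%, so that the rise of the maternal share was not seen there. *Sirt5*, a mitochondrial deacylase, went from 4.13% and 2.45% to 36.6% and 27.4%, and *Tub*, a protein of ciliary trafficking, from 3.76% and 3.94% to 23.7% and 25.0%. Both kept a *cast* bias that was called at D15, though that of *Sirt5* was -0.79 in log2 ratio, short of 2-fold, without the second D15 replicate.

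*Gata3* (chr2:9857078-9890034), a zinc finger transcription factor of T cells and of trophoblast, was read from the maternal allele alone in the wt ES cells. All 57 and 56 reads were from the maternal allele at D0, which puts the maternal allele at least 19-fold and 18.7-fold above *cast* (a floor of 3 reads per library). At D15 it had 138 and 92 reads from the maternal allele and *cast* in the first library and 91 and 58 in the second, shares of 60% and 61.1%. Its level at D15 was higher on both alleles, 15.0 RPM against 6.78 at D0 on the maternal allele and 9.83 against 0 on *cast*. The KO and control libraries had shares of 98.8% to 100% at D0 and 57.9% to 69.5% at D15, on the same side as wt on both days.

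*Prr5l* (chr2:101714285-101883027), which binds the kinase complex mTORC2, had a share of 98.2% and 98.4% at D0 and of 55.8% and 48.9% at D15, from 109 and 2 reads and 61 and 1 reads to 309 and 245 and 250 and 261. Its change was -5.56 ± 0.46 (SE) in log2 ratio (edgeR, adjusted p = 3.6e-10). *Nefm*, the medium neurofilament subunit, went from 100% and 96.2% to 57.5% and 55.3%, although its summed level was lower at D15 (8.59 counts per 1000000 (CPM) against 11.7 at D0). *Slc30a2*, a zinc transporter, went from 95.2% and 95.7% to 61.1% and 65.6%, and *Ephx2*, the soluble epoxide hydrolase, from 96.1% and 96.6% to 71.1% and 69.7%. In *Ephx2* the *cast* allele had 4.49 RPM at D0 and 35.4 at D15, and the maternal allele 118 and 84.1. *Ncoa7*, a nuclear receptor coactivator, and *Fsd1l* moved in the same way, from 96.3% and 95.5% to 67.1% and 63.9% and from 97.5% and 98.7% to 64.8% and 74.1%.

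Just outside the limit of 5% were 3 further genes among the largest gains of the maternal allele. *Col6a1*, a chain of collagen VI, had few reads at D0, 4 and 109 from the maternal allele and *cast* in the first library and 9 and 73 in the second, and then 3226 and 3282, and 2564 and 2665, at D15. Its maternal share changed from 3.54% and 11% to 49.6% and 49.0% (log2 change 3.74 ± 0.28 SE, edgeR adjusted p = 7.6e-11) and its summed level was 3.28 CPM at D0 and 213 at D15. *Optn*, an autophagy receptor, changed from 5.67% and 5.80% to 38% and 43.0% with a similar level on both days, 35.1 and 38.5 CPM. *Fbxo32*, the ubiquitin ligase subunit atrogin, crossed to the other allele, from 5.08% and 8.60% to 63.6% and 59.1%, but its maternal excess at D15 was below 2-fold.

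A different picture came from the genes read from the same allele on both days. Of the 67, 55 had a symbol other than those of predicted genes and pseudogenes, 38 read from the maternal allele and 17 from *cast*, and 50 of the 55 were also at or beyond 95% or 5% in all 6 other libraries. These genes stood out in how uniquely their reads can be placed. Annotated pseudogenes were searched, whether copies of a spliced RNA inserted elsewhere in the genome (processed) or duplicates of a gene (unprocessed). Such a pseudogene matched the transcript at 90% identity or more over at least 150 bases in 33 of the 55 (60%), and in 862 of all 6604 genes with such symbols (13.1%). The counts on the pseudo-129 genome and on the pseudo-*cast* genome differed by at least 0.1 on the log2 scale in 37 of the 55 (67.3%), against 422 of 6604 (6.39%). Neither measure uses the split of SNP reads, but the pseudogenes are those annotated in the reference genome, and how far such copies set the split was not tested. Among the 13 genes that went from 1 allele to both, 0 had a pseudogene copy and 2 (15.4%) had unequal counts.

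**Figure D3:**
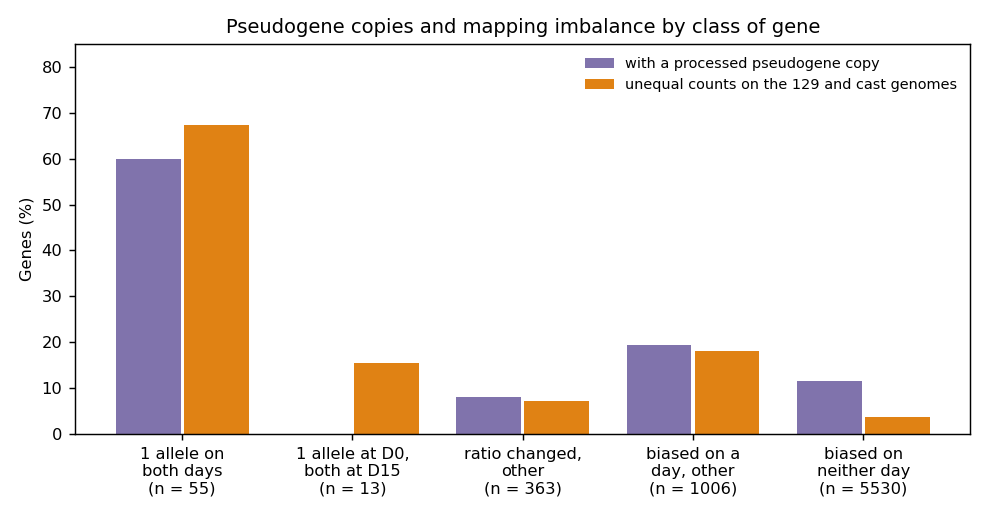
Percentage of genes (y axis) with a pseudogene copy (purple, labelled processed in the figure though unprocessed ones are included) and with counts on the pseudo-129 and pseudo-*cast* genomes that differ by at least 0.1 in log2 (orange), for classes of genes on the other autosomes, where the classes of genes with a changed ratio and of genes biased on a day share members. The genes read from 1 allele on both days stand apart at 60% and 67.3%, against 11.5% and 3.65% of the 5530 genes biased on neither day.

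*Tuba1b*, an alpha-tubulin, had the highest fitted ratio at D0 among the genes named here, a rank that follows depth where the other allele has no reads. It had 3540 and 2591 reads from the maternal allele at D0 and 1246 and 1430 at D15, with 0 from *cast* in each library, and 10 pseudogene copies. *Hspa8*, the constitutive heat shock protein HSC70, was its counterpart on *cast*, with 4 and 4 reads from the maternal allele against 5914 and 7168 from *cast* at D0, and 2 and 1 against 5032 and 4575 at D15. It too had 10 copies, and its counts on the pseudo-129 genome were lower than on the pseudo-*cast* genome by 1.27 on the log2 scale, where those of *Tuba1b* were higher by 1.59. *Ywhah*, a 14-3-3 protein, *Ranbp1*, a regulator of the Ran GTPase, *Ptbp1*, a splicing repressor, *Itpa*, *Mrpl36* and the loci annotated as *Mir703* and *Mir6236* made up the rest of the highest ratios at D0. *Cdk8*, the kinase of the Mediator complex, with 1 copy and counts lower on the pseudo-129 genome by 1.51 on the log2 scale, had 0 maternal reads in all 4 libraries, which allows a maternal share of up to 1.39%, 2.80%, 1.82% and 1.99%.

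Some of these genes had neither a pseudogene copy nor unequal counts. *Klf6*, a zinc finger transcription factor, had 295 and 318 reads from the maternal allele and 2 and 2 from *cast* at D0, and 1668 and 1015 against 6 and 2 at D15, so that its single allele stayed single while its level was 48.5 CPM at D0 and 189 at D15. *Usp48*, a ubiquitin protease, had maternal shares of 97.5%, 98%, 98.1% and 97.5%. On the *cast* side, *Eif5b*, a translation initiation factor, had 12, 4, 4 and 5 reads from the maternal allele in the 4 libraries against 1501, 1028, 719 and 503 from *cast*. *Reep4*, of the endoplasmic reticulum, had 1, 2, 1 and 4 against 210, 172, 323 and 250. *Creb3*, a membrane-bound transcription factor, had 0, 0, 3 and 1 against 61, 56, 133 and 131. These 5 genes were picked out for lacking copies after their values were seen.

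Leaving out all genes with a copy or unequal counts, a choice made after seeing the data, gave lower percentages of biased genes on both days. Of the 5761 genes left, 709 (12.3%) were biased at D0, 403 to the maternal allele and 306 to *cast*, and 323 (5.61%) at D15, 198 and 125. The calls of a changed ratio were nearly as frequent as before, 338 genes (5.87%), with the maternal allele gained at 153 and *cast* at 185. The genes read from 1 allele numbered 21 from the maternal allele and 9 from *cast* at D0, and 10 and 4 at D15.

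Lists of genes chosen by symbol showed how unequally these biases are spread. The ribosomal protein genes, most of which have many pseudogenes, had 38 of 87 members with enough reads, and 19 of them were called at D0 and 17 at D15. On the other autosomes these were 16 of 34 (47.1%) and 15 (44.1%), against 15.0% and 8.80% of all genes there, and at D0 the maternal allele was higher in 12 and *cast* in 4. Of the 33 on any chromosome with a pseudogene copy 18 were called on either day, and of the 5 without 2. *Rps18* and *Rps6* of the small subunit took opposite sides, with maternal shares of 100%, 99.7%, 100% and 99.4%, and of 2.87%, 2.16%, 0.837% and 0.624%. The proteasome subunits, with 38 of 50 tested, had 6 called at D0 and 4 at D15, but on the other autosomes only *Psmd6* was called, 1 of 24 (4.17%) on each day, while 5 and 3 of the 13 members on chromosomes 6, 8, 11 and 12 were called. The *Zfp* genes, taken by that symbol followed by a digit, were called on the other autosomes in 18 of 176 at D0 (10.2%) and 14 at D15 (7.95%). Their ratio changed towards *cast* in 5 and towards the maternal allele in 1, against 3.25% and 2.53% of all genes on the other autosomes. The ratio also changed towards *cast* in all 5 *Zfp* genes tested on the X, where it did so in 46.8% of all 301 genes tested. On chromosomes 6, 8, 11 and 12, with 42 *Zfp* genes tested, it changed towards *cast* in 2 and towards the maternal allele in 1. Over all tested genes of each of these 4 chromosomes, 2.48% to 7.11% changed towards *cast* and 1.29% to 8.29% towards the maternal allele.

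Among the major histocompatibility genes, which present peptides to T cells, 4 of 43 had enough reads. *H2-K1* was read from the maternal allele alone in all libraries, but it is a very polymorphic gene with close relatives that can share its reads, so its split is uncertain. *H2-Ab1* favoured the maternal allele on both days, at 70.8% and 62.4% at D0 and 70.3% and 71.2% at D15. Its counts on the pseudo-129 genome were higher than on the pseudo-*cast* genome by 0.40 on the log2 scale, past the limit of 0.1 used above. *H2-DMa* favoured *cast*, at 34.2% and 27.8% at D0 and 31.5% and 36.1% at D15, and was called at D0 alone. *H2-Ke6* was called on neither day. The glutathione S-transferases, enzymes of detoxification, had 8 of 21 members tested, of which the ratio of 3 changed, all with the maternal allele gained, against 2.83% of the 9220 genes tested on all chromosomes. The genes were *Gsto1*, from 14.6% and 15.8% to 36.6% and 34.5%, *Gstm3*, from 50% and 47.8% to 72.7% and 76.5%, and *Gstz1*, from 12.7% and 11.3% to 33.6% and 32.5%. *Gstz1* lies on chromosome 12, and these 3 were named after their values were seen.

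Markers of the cell types in the culture were checked for their own alleles. Of 12 pluripotency genes 11 were tested, with 2 biased to *cast* at D0 (18.2%) and 1 at D15 (9.09%). Over all 9220 genes tested, 16.2% and 11.7% were biased. Of the 11, 8 lie on the other autosomes, with 1 called at D0 (12.5%) and 0 at D15. Of all genes there, 15.0% and 8.80% were called. *Nanog*, a core pluripotency factor on chromosome 6, had 32.1% and 28.7% from the maternal allele at D0 and 22.6% and 24.1% at D15, and *Dppa4* 29.8% and 32.6%, then 41.5% and 41.8%. *Sox2*, *Klf4* and *Zfp42* were called on neither day. The summed level of the pluripotency list was 8238 to 8545 CPM at D0 and 3624 to 4058 at D15, so that much of it was still read in the EBs.

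Fibroblast markers matter at D0 because the ES cells were grown on feeders. Of 22 such genes 8 had enough reads, and the summed level of the 22 was 1688 to 2054 CPM at D0 and 10889.6 to 11604.9 at D15. Most of the D0 sum came from *Fn1*, at 1272 and 1642 CPM, and *Vim*, at 335 and 324. The next highest at D0 was *Col5a1*, at 34.6 and 36.7 CPM, while *Col1a1* had 4.59 and 9.02 and *Col3a1* 0.108 and 0.283. Of the 6 on the other autosomes, 4 were called at D0 (66.7%), 3 to the maternal allele and 1 to *cast*, against 15.0% of all genes there. At D15, 1 was called (16.7%), to the maternal allele, against 8.80%. Over all 8 the ratio changed towards *cast* in 3 and towards the maternal allele in 1, *Col6a1*, described above. Of all 9220 genes tested, 5.01% changed towards *cast* and 2.83% towards the maternal allele. *Vim*, the intermediate filament of mesenchymal cells, had maternal shares of 72.5% and 74.5% at D0 and 51.5% and 51.6% at D15, and changed by -1.39 ± 0.06 (SE, edgeR adjusted p = 4.2e-15). *Col5a1*, a fibrillar collagen, changed likewise from 68.3% and 70.2% to 50.6% and 49.7%. The median of the 8 genes was 49.1% and 60.7% in the D0 libraries and 50.9% and 51% in the D15 libraries, so that the D0 libraries lay on either side of those of D15. *Thy1*, at 17.0 and 9.75 CPM at D0, had maternal shares of 78.4% and 83.3% at D0 and 72.1% and 69.7% at D15. *Fn1* was near equal, at 47.5% and 48.7% at D0 and 49.8% and 51.1% at D15. *Dcn* and *Lum*, also of the 22, had 0 SNP reads at D0. The part that RNA of feeder cells has in the D0 shares was not tested, and the strain of the feeders is not given in the sources used here.

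*Col1a1*, on chromosome 11, shows what a single library can do. Its maternal share was 45.2% and 71.3% at D0, and 40.7% and 37.8% at D15, with a log2 change of -1.12 ± 0.25 (SE, edgeR adjusted p = 0.0011). Without the second D0 replicate the change was -0.36 and was no longer called (adjusted p = 0.47, edgeR). It was not called by DESeq2 either (adjusted p = 0.43). Of the other marker lists, 2 of 7 neural genes were tested, with *Tubb3* of chromosome 8 biased to *cast* at D15 (short of 2-fold without the first D15 replicate), and 2 of 5 endothelial genes, with the receptor *Tek* going from 93.8% and 87.5% to 67.9% and 53.6%. Of 9 cardiac genes 0 had enough reads.

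The genes of the imprinted lists were mostly read from both alleles, on both days. The lists were not limited to genes known to be imprinted in ES cells or EBs. Equal reads of a member therefore do not show that imprinting was lost, which was not tested. Of 41 maternally expressed genes 20 were tested. On the other autosomes the maternal allele was higher in 1 of 11 (9.09%) on each day, against 9.19% of all genes there at D0 and 5.76% at D15. The 9 on chromosomes 6, 8, 11 and 12 held the 4 with *cast* higher at D0, *Meg3*, *Rian*, *Mirg* and *Asb4*, and these 4 were also the ones with a ratio that changed, towards the maternal allele. Of 33 paternally expressed genes 19 were tested. On the other autosomes 3 of 13 (23.1%) were called at D0 and 2 (15.4%) at D15, against 15.0% and 8.80% of all genes there. The maternal allele was higher in 1 and *cast* in 2 at D0, and in 1 and 1 at D15. Among the 6 on chromosomes 6, 8, 11 and 12, *cast* was higher in 2 at D0. The ratio changed towards the maternal allele in 2 of these 6, *Dlk1* and *Dio3*. At D0 *cast* was higher at 38.6% of all genes tested on chromosome 12, where *Meg3*, *Rian*, *Mirg*, *Dlk1* and *Dio3* lie. On chromosome 6, with *Asb4*, this was 4.27%. The mean of the library medians was 48.9% at D0 and 47.7% at D15 for the first list and 49.9% and 50.9% for the second, close to equal in both. *H19*, an abundant maternally expressed RNA of the embryo, had shares of 49.7% and 46.0% at D0 and 46.1% and 46.4% at D15, while its level was 17.7 and 15.4 CPM at D0 and 13818 and 13522 CPM at D15. *Peg3*, paternally expressed, went from 31.3% and 33.8% to 48.9% and 48.2%, a change of 0.96 in log2 ratio that was just short of 2-fold.

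A few imprinted genes kept 1 allele or moved between alleles. *Commd1*, on chromosome 11, had maternal shares of 99.1%, 99.0%, 99.9% and 99.4%, the maternal side, and *Mcts2* 2.40%, 2.02%, 1.74% and 1.76%, the paternal side, in the D0 and D15 libraries. In the *Dlk1*-*Dio3* cluster of chromosome 12, *Meg3* went from 8.66% and 10.5% to 26.3% and 26.9%, and *Dlk1* from 19.3% and 18.9% to 85% and 81.9% (log2 change 4.41 ± 0.28 SE, edgeR adjusted p = 2.7e-12). *Asb4* of chromosome 6, maternally expressed in the embryo, was read from *cast* at D0, at 4.76% and 5.70%, and from both at D15, at 45.6% and 42.5%.

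On 4 chromosomes the shift involved neighbouring genes together. The median maternal share of each of the 15 other autosomes stayed between 49.7% and 51.7% in all 4 wt libraries and changed by -0.743 to 0.442 percentage points between the days. Chromosome 6 had medians of 53.2% and 53.7% at D0 and 48.3% and 48.8% at D15. Chromosome 8 had 44.5% and 45.7%, then 47.2% and 47.5%. The median of chromosome 6 thus crossed from an excess of the maternal allele to an excess of *cast*, though from summed reads it kept a maternal excess, with 56.3% at D0 and 51.7% at D15, and chromosome 8 came nearer to equal shares. On chromosome 11 the medians were 51.3% and 51.9% at D0 and 45.3% and 45.6% at D15, and on chromosome 12 they were 35.4% and 35.4%, then 38.6% and 39.4%. In each case the days did not overlap, as was also so for 12 of the 15 other autosomes, and with 2 libraries against 2 an exact permutation test cannot give a p below 0.33, so no test is given. The X chromosome, the target of inactivation on the maternal copy, went from 48.9% and 49.7% to 31.7% and 33.7%.

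**Figure D4:**
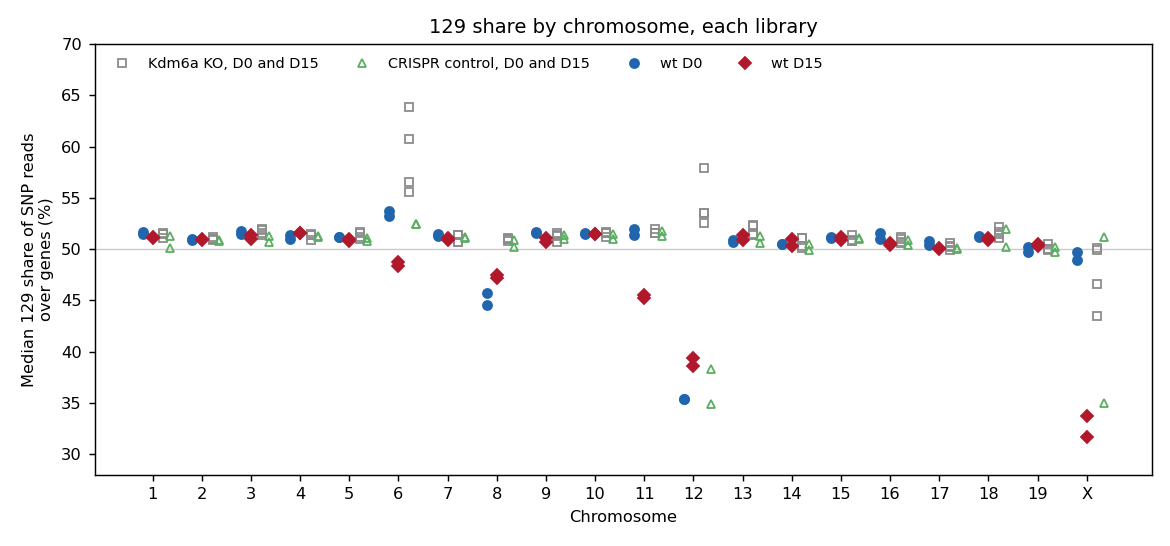
Median maternal share of SNP reads over the tested genes (y axis, %) of each chromosome (x axis), with a point per library for wt at D0 (blue circles) and D15 (red diamonds), *Kdm6a* KO (grey squares) and CRISPR control (green triangles). The wt points of 15 autosomes lie between 49.7% and 51.7%, while those of chromosomes 6, 8, 11, 12 and, at D15, of the X lie apart.

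These skews were not shared by all groups of the line, unlike the bias of single genes. The KO libraries had medians of 50.8% to 51.1% on chromosome 8, 51.5% to 51.9% on chromosome 11 and 52.5% to 57.9% on chromosome 12. The CRISPR control was at 50.2% and 50.9% on chromosome 8 and at 51.8% and 51.3% on chromosome 11, but at 38.3% and 34.9% on chromosome 12, near the wt cells. On chromosome 11 the skew was in the wt cells at D15 alone. The number of copies of these chromosomes was not measured.

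Within chromosome 6 the skew had edges. The limits of the segments below were set from these shares, so they are a description. From chr6:45059357-92214925, 146 genes had median maternal shares of 58.7% and 61.4% at D0 and 67.6% and 68.9% at D15. In the 276 genes on either side the medians were 50.4% and 50.3% at D0 and 43.7% and 44.0% at D15, so that the segment and its flanks moved in opposite directions. The same segment was read from the maternal allele alone in all 4 KO libraries, with a median of 100% in each, and was at 51.9% and 51.7% in the CRISPR control. On chromosome 8 the skew lay in the distal part from position 70292866, where 334 genes had medians of 42.5% and 44.0% at D0 and 46.1% and 45.8% at D15. Its 187 proximal genes were near equal, at 48.8% and 49.0%, then 49.7% and 50%. On chromosomes 11 and 12 it was spread over the whole length, down by 3.16 to 10.8 percentage points in each of 31 windows of 25 genes on chromosome 11 and up by 1.02 to 8.12 in each of 15 on chromosome 12.

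**Figure D5:**
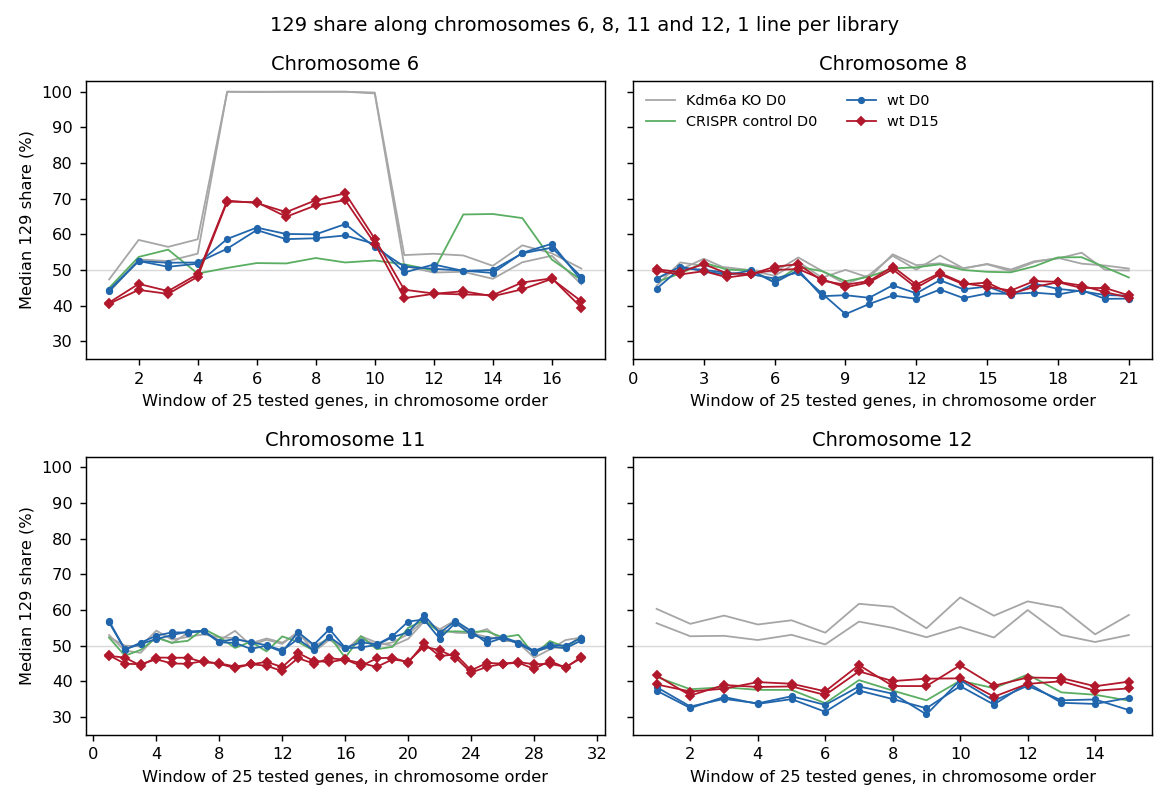
Median maternal share (y axis, %) in windows of 25 tested genes in chromosome order (x axis) along chromosomes 6, 8, 11 and 12, with a line per library for wt D0 (blue), wt D15 (red), *Kdm6a* KO D0 (grey) and CRISPR control D0 (green). The inner windows of chromosome 6 reach 61.5% in wt at D0 and 70.5% at D15 in the mean of the libraries and about 100% in KO, and all 31 windows of chromosome 11 are lower at D15 than at D0.

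The reads of each allele, taken relative to the other autosomes, showed which allele moved. From D0 to D15 the *cast* reads of the inner segment of chromosome 6 went to 0.657 of their D0 value (range over the 4 pairs of libraries 0.608 to 0.706) and the maternal reads to 0.991. In its flanks the *cast* reads went to 1.31 (1.27 to 1.34) and the maternal reads to 1.00. On chromosome 11 the *cast* reads went to 1.24 (1.23 to 1.26) and the maternal reads to 0.990, and on chromosome 12 the maternal reads went to 1.20 (1.20 to 1.21) and the *cast* reads to 1.02. It was thus the *cast* reads that differed between the days on chromosomes 6 and 11 and the maternal reads on chromosome 12. Any single one of the other autosomes ranged from 0.902 to 1.06 for the maternal allele and from 0.921 to 1.05 for *cast*. At D0, wt cells had 1.68 times the *cast* reads of KO cells on chromosome 12 (1.51 to 1.90) and 0.737 times the maternal reads (0.60 to 0.910), and in the distal part of chromosome 8 1.49 times the *cast* reads (1.41 to 1.58) and 1.09 times the maternal reads. The other autosomes stayed between 0.944 and 1.03 in that comparison.

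Calls of single genes were also uneven on these chromosomes. Over all 9220 genes tested, 16.2% were biased at D0 (9.02% to the maternal allele and 7.15% to *cast*) and 11.7% at D15 (6.08% and 5.61%), and the ratio changed at 7.84% (2.83% towards the maternal allele and 5.01% towards *cast*). On chromosome 12, 159 of 363 genes were biased at D0, 19 to the maternal allele and 140 to *cast*, and at D15 74, 14 and 60. On chromosome 11, 110 of 774 genes were biased at D0, 76 to the maternal allele and 34 to *cast*, against 30 and 45 at D15, and the ratio changed towards *cast* in 45 and towards the maternal allele in 10. Chromosome 12 thus held the most *cast* calls, and the balance of calls on chromosome 11 turned over. On chromosome 6, 58 of 422 genes were biased to the maternal allele and 18 to *cast* at D0, and 93 and 23 at D15. On chromosome 8, of 521 genes 26 and 40 were called at D0 and 19 and 21 at D15.

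Some genes moved far more than their surroundings. *Atp2c2*, a calcium pump of the secretory pathway on chromosome 8, had 1 and 59 reads from the maternal allele and *cast* in the first D0 library and 0 and 63 in the second, and 148 and 169, and 130 and 159, at D15. *Kbtbd11*, on the same chromosome, went the other way, from 477 and 16, and 350 and 11, to 103 and 46, and 78 and 32. *Bst2*, the antiviral protein tetherin, was read mostly from *cast* at D0, at 25.3% and 21.2%, and mostly from the maternal allele at D15, at 65.7% and 64.4% (log2 change 2.56 ± 0.19 SE, edgeR adjusted p = 4.1e-11). On chromosome 6, *Aass*, an enzyme of lysine breakdown, crossed from 77.8% and 80% to 17.8% and 18.1%, and *Slc4a5*, a bicarbonate transporter inside the skewed segment, went from 83.8% and 87.5% to 97.3% and 98.7%.

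On chromosome 11, *Notum*, a secreted enzyme that inactivates Wnt proteins, went from 94.4% and 95.2% to 55.5% and 55.5%, and *Jup*, the junction protein plakoglobin, from 91.3% and 88.5% to 52.5% and 53.2%. The *cast* level of *Jup* was 23.0 RPM at D0 and 230 at D15, while its maternal level was 198 and 258. In the KO D15 libraries *Notum* was still at 98.6% and 88.5%, so that neither repeated the wt values. *Jup* was at 75.2% and 50.3% there, of which only the lower value lay near those of wt. *Ccl9*, a chemokine, had 0 of 423 and 0 of 311 reads from the maternal allele at D0, which allows a maternal share of up to 0.709% and 0.965%, and 3 of 113 and 3 of 99 at D15.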

How the data were processed

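PolyA RNA of *Tsix*-stop ES cells (D0) and EBs (D15) was sequenced by the authors as 75 bp single-end reads from TruSeq v2 libraries. For alleles they mapped reads to pseudo-129 and pseudo-*cast* genomes, made from mm10 and published SNPs, kept reads placed uniquely with high mapping quality and split them by SNP. The submitters' processing notes list TopHat2 2.1.1 and Bowtie2 2.4.5. The annotation and the use of strand in counting are not given in the sources used here. Per gene, the authors deposited estimated counts with no scaling. These keep fractions of reads, and 3.63% of the allelic values were not whole and were rounded. What each column holds was read from its header and from how the columns add up. 129 is the maternal strain and is called the maternal allele in the text, while figure labels keep 129.

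Each library gave 2 allelic columns with the same library size for both, so a ratio of 1 means equal reads. The 4 wt libraries were fitted together over all 9220 genes with edgeR 4.0.16 (quasi-likelihood) in R 4.3.3, with library as block and the allele ratio of each day as terms. A call needed a Benjamini-Hochberg FDR, taken over all tested genes, of 0.1 or less and a difference of 2-fold or more. The common biological coefficient of variation of the allelic counts was 0.0374, with 2 residual and 23.1 prior degrees of freedom. The p-values measure only the spread between these samples, which may be technical. The fit was tested on simulated data with 200 changed genes. DESeq2 1.42.0 was an alternative, with other read limits, folds, scalings and blocks. Same-numbered libraries of the 2 days deviated together in their allelic ratios with a correlation of 0.0744. This value cannot show whether a number ties libraries to 1 culture, and the main fit did not pair them. Allelic levels are RPM, reads per 1000000 SNP reads, and CPM uses the count on the pseudo-129 genome.

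Symbols were matched to GENCODE vM21, and 24238 of 24346 matched, 666 by a synonym and 262 by RefSeq. The 13175 transcripts annotated as processed or unprocessed pseudogenes were aligned with minimap2 2.31 to the protein-coding transcripts. Other tools were Python 3.11.15, pandas 2.3.3, numpy 2.4.6, scipy 1.17.1 and matplotlib 3.10.9. Genes named are those with the 8 highest and 8 lowest ratios per day, the 8 largest changes each way, 2 each way on chromosomes 6, 8, 11 and 12, and called members of the imprinted and marker lists, without symbols of predicted genes. Other names are marked or belong to a class given in full. Members, lists and tests were chosen with earlier results of these data known. Intervals and limits of 3 reads cover counting error only, since reads carry no molecular identifiers. The CRISPR control was taken from its labels. Libraries of the E8 line were not used.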

Additional observations from a re-analysis of the deposited data

Results flagged for a closer look

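The genes below had a maternal to *cast* ratio that differed between D0 and D15 in the edgeR fit, by at least 2-fold and at an adjusted p of at most 0.1, as log2 ratio at D15 minus that at D0. No explanation was tested.

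Gains of the maternal allele on the other autosomes were 9.52 for *Dok5*, 5.34 for *P4ha3*, 5.30 for *Dab2*, 5.12 for *Apoa2*, 4.46 for *Fbxo32*, 3.74 for both *Sirt5* and *Col6a1*, and 3.47 for *Optn*. Gains of *cast* were -8.12 for *Gata3*, -5.56 for *Prr5l*, -5.22 for *Nefm*, -4.62 for *Fsd1l*, -4.51 for *Nsfl1c*, -4.08 for *Myl6*, -3.61 for *Slc30a2*, -3.58 for *Ncoa7*, -2.58 for *Tek*, -1.97 for *Mif*, -1.84 for *Rps6*, -1.39 for *Vim* and -1.17 for *Col5a1*. The fitted values of *Dok5*, *Gata3* and *Myl6*, which had 0 reads of an allele in both D0 libraries, and of *Nsfl1c*, with 0 maternal reads in both D15 libraries, depend on the prior count and are no estimate of size. The changes of *Nsfl1c*, *Mif* and *Myl6* were lost in several settings.

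On chromosome 6 the values were 3.85 for *Asb4*, 2.95 for *Slc4a5*, -4.07 for *Aass* and -7.52 for *Bcl2l14*, and on chromosome 8 they were 6.35 for *Atp2c2*, 2.56 for *Bst2*, -3.71 for *Kbtbd11* and -1.57 for *Galnt2*. On chromosome 11 they were 6.38 for *Ccl9*, again with 0 maternal reads at D0, 2.10 for *Slc16a13*, -3.86 for *Notum*, -2.96 for *Jup* and -1.12 for *Col1a1*. On chromosome 12 they were 4.41 for *Dlk1*, 3.29 for *Dio3*, 1.79 for *Meg3*, 1.60 for *Rian*, 1.49 for *Mirg*, -2.19 for *Vash1* and -1.52 for *Flrt2*.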

How the results depend on the processing

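Counts below give the maternal allele first and *cast* second, at D0, at D15 and for the change of ratio. In the other settings tried (both scalings, DESeq2, the binomial test, read limits not named here) they stayed within 1.5 times the main counts. With at least 1 read they were 1209 and 857, 824 and 529, and 339 and 414, with no minimum fold 2482 and 1724, 2277 and 1561, and 941 and 1095, and with a 3-fold minimum 320 and 179, 187 and 102, and 57 and 83. Over all autosomes, *cast* was higher at 628 and 357 genes, and the maternal allele gained at 260. A limit of 20 reads gave 265 and 346 changes, and one of 100 reads 105 and 142. DESeq2 gave 632 and 397, 393 and 209, and 144 and 167, sharing 308 of the 395 changed genes. A replicate block gave 633 and 397, 394 and 208, and 175 and 221. Without each library in turn, with the lone sample assumed to vary like the others, D0 calls ranged over 627 to 659 and 389 to 402, D15 calls over 393 to 418 and 208 to 242, and changes over 179 to 196 and 225 to 245. Without genes that had a pseudogene copy or unequal genome counts, an alternative added after seeing the data, the maternal allele was higher at 403 genes at D0 and the D15 calls were 198 and 125.

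Single-allele genes at D0 numbered 39 and 13 at limits of 98% and 2%, 48 from *cast* at 10%, and 21 and 9 at D0 and 10 and 4 at D15 without copies or unequal counts. From summed reads the shares at D0 and D15 were 56.3% and 51.7% on chromosome 6, 53.6% and 46.6% on 11 and 37.6% and 39.8% on 12, and 47.1% on chromosome 8 at D15. With at least 200 reads they were 52.8% and 47.5% on 6, 45.2% on 11 at D15 and 35.1% on 12 at D0. Summed reads of the maternally expressed list gave 36.9% and 43.3%, of the paternally expressed list 47.4% and 47.0%, and of fibroblast markers 48.6% at D15. Of 1760 values of named genes over the settings, 21 lost the call and 0 reversed. These included the changes of *Nsfl1c*, *Mif*, *Myl6* and *Col1a1*, called neither by DESeq2 (adjusted p 0.14, 0.15, 0.16 and 0.43) nor without the library block in edgeR (0.12, 0.26, 0.15 and 0.15). They were also lost for *Nsfl1c* without the second D0 or either D15 replicate (0.13 to 0.20), for *Mif* without the second D0 or D15 replicate (0.12 and 0.24), for *Myl6* without either D0 or the first D15 replicate (0.15 to 0.18) and for *Col1a1* without the second D0 replicate (0.47). The others were the bias at D15 of *Sirt5* (-0.79) and *Fsd1l* (0.88) without the second D15 replicate, of *Tubb3* (-0.79) without the first, and at D0 of *Peg3* (-0.97) without the first D0 replicate. The cause was not tested.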
